A study of Mus musculus with 18 samples.

Results

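Organoids cultured from the colitis-associated cancer (CAC) model were compared with colorectal tissue of the same model, both labelled RNF138-/-, to find which gene expression of the tissue was present in culture and which was not. The comparison takes 6 of the 18 libraries of the series, 3 of organoids and 3 of CAC tissue, chosen by their sample labels and normalized together. Mice of the C57BL/6 strain, 6 to 8 weeks old, received azoxymethane (AOM, a colon carcinogen) at 10 mg/kg. After 4 days they drank 2% dextran sulfate sodium (DSS, which injures the colonic epithelium) for 7 days and plain water for 14 days, and 2 further DSS cycles followed. Organoids were grown in Matrigel from digested bowel fragments that contained tumors, after EDTA had been used to remove normal epithelium. The labels do not say in which cells or how Rnf138 was deleted. Another 6 libraries, labelled wild type (RNF138 fl/fl mice), 3 of organoids and 3 of CAC tissue, serve below to test whether the difference depended on the labelled genotype and to compare the organoids of both labels. The labels call the tissue colorectal, and say neither whether tumor was separated from the surrounding bowel nor whether cultures and tissue came from the same mice. The p-values therefore measure the spread between these libraries only.

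Tumor organoids are cultures in which epithelial cells renew and differentiate within a gel of basement membrane proteins. In the bowel, crypt stem cells are maintained by Wnt ligands, R-spondins and BMP antagonists, and fibroblasts and muscle cells beneath the crypt supply much of this signal. Fibroblasts are recognised by fibrillar collagens, small proteoglycans and platelet-derived growth factor receptors, and epithelial cells by keratins, E-cadherin and claudins.

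Total counts were between 15733841 and 19608929 in the CAC tissue libraries and between 16492092 and 24390082 in the organoid libraries. Mitochondrially encoded genes took between 2.57 and 3.11% of the counts in tissue and between 0.695 and 0.83% in organoids. Levels are given in CPM, counts scaled to library size with the TMM factors of the 6 libraries. Rnf138, the ubiquitin ligase gene that the labels call deleted, had 50.7, 47.7 and 43.1 CPM in organoids and 38.7, 45.4 and 44.5 CPM in tissue and was kept within 2-fold (log2 difference 0.14, SE 0.11, edgeR adjusted p = 0.266). On the scale of the 12 libraries, those labelled wild type had 37.2, 53.9 and 55.6 CPM in organoids, overlapping the 49.5, 47.8 and 42.3 CPM of those labelled RNF138-/-. Wild-type tissue had 27.8, 27.6 and 21.9 CPM, below the 39.3, 45 and 44.6 CPM of tissue labelled RNF138-/-. A count per gene cannot show a missing exon, and the libraries are called by their label throughout. Xist, expressed from the inactive X chromosome of females, was at 0.571 CPM or less in all 6 libraries.

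Organoids and tissue differed over much of the transcriptome. Of 17208 genes tested with edgeR, 7980 (46.4%) were called, 3415 (19.8%) as higher and 4565 (26.5%) as lower in organoids. A call required a fold of 2 or more and an adjusted p under 0.05. Another 5923 genes (34.4%) were kept within 2-fold, meaning that the 95% interval of the difference lay inside that range. The groups did not overlap for 6177 genes (35.9%) that were higher and 7148 (41.5%) that were lower in organoids. The median difference over all genes tested was -0.13 on the log2 scale. Scaling to library totals in place of TMM moved this median to -0.78, and 2096 genes were then higher and 7322 lower.

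**Figure D1:**
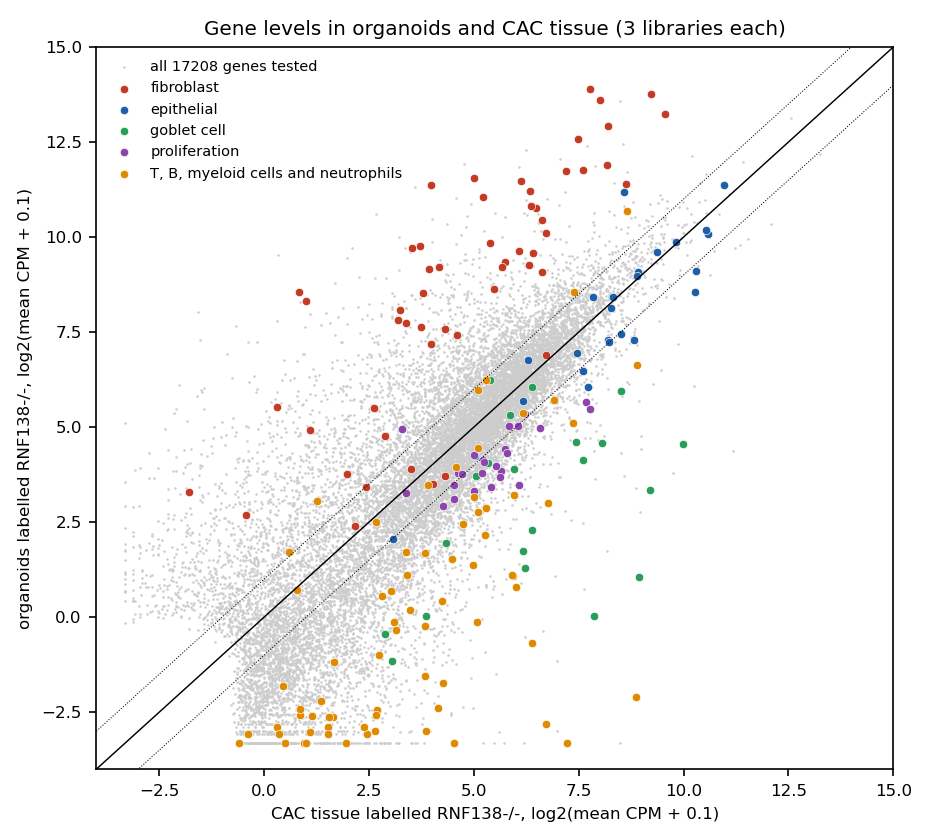
Mean level of each gene tested in CAC tissue (x axis) and in organoids (y axis), both labelled RNF138-/-, on log2 axes of CPM. Most fibroblast genes, with a median difference of 4.05, lie above the line of equal levels, and most epithelial genes, with a median of -0.49, lie near it.

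The genes with the largest rise in culture encode mostly secreted and matrix proteins. Among called genes that averaged 50 CPM or more in whichever group was higher, the 10 with the largest positive difference included Ptx3, Col10a1, Nxph3, Col11a1, Chrdl2, Slit3, Cck, Has1 and A2m. Ptx3, a secreted pattern recognition protein, had 191, 284 and 301 CPM in organoids and 0.104, 0.162 and 0.44 CPM in tissue. Slit3, a secreted guidance protein, had 1320, 1770 and 1560 CPM against 5.5, 6.52 and 6.73 CPM, a log2 difference of 7.95 (SE 0.19; edgeR adjusted p = 1.26e-06). Has1 makes hyaluronan, Col10a1 and Col11a1 are collagen chains, and Cck is a gut hormone. The naming rule required that the groups not overlap for these genes.

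The 10 with the largest negative difference were Jchain, H2-Aa, Igha, S100a9, Ighg1, Clca1, Clca3b, S100a8, H2-Eb1 and Cd74, genes of plasma cells, antigen presentation, neutrophils and goblet cells. Jchain, which joins immunoglobulin A or M into polymers, had no count in any organoid library and 199, 134 and 116 CPM in tissue. It was at least 752-fold lower when 3 counts per organoid library are taken as the limit, a bound that covers counting error only. Igha, the heavy chain of immunoglobulin A, had 523, 559 and 307 CPM in tissue and between 0.0709 and 0.226 CPM in organoids. Cd74, the invariant chain of MHC class II, had 1.7, 1.48 and 1.5 CPM in organoids and 198, 185 and 213 CPM in tissue, a log2 difference of -6.99 (SE 0.12; edgeR adjusted p = 7.12e-07). For Ighg1 tissue replicate 1 held most of the signal, at 360, 8.71 and 8.93 CPM in the 3 tissue libraries.

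**Figure D2:**
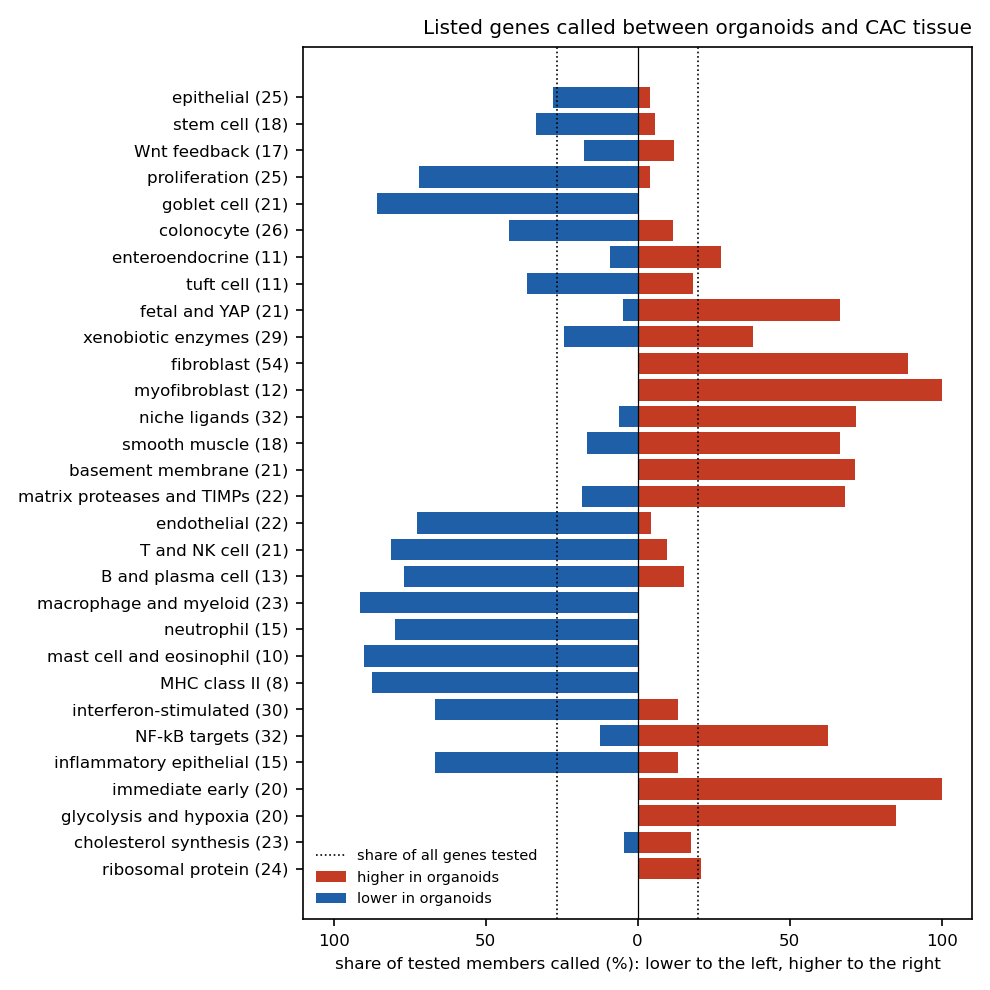
Share of the tested members of each gene list that was called higher (right) or lower (left) in organoids than in CAC tissue, in percent, with the number tested in parentheses. Dotted lines mark the shares over all 17208 genes tested, 19.8% higher and 26.5% lower. The bars of the fibroblast, myofibroblast and immediate early lists point right, and those of the goblet, myeloid and MHC class II lists point left.

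Of 25 epithelial genes, 14 were kept within 2-fold, 1 rose and 7 fell, with a median difference of -0.49. Over all genes tested 34.4% were kept, 19.8% rose and 26.5% fell, so the share of epithelial genes that fell lay near that of all genes. Their summed level was between 10400 and 15400 CPM in organoids and between 12700 and 15100 CPM in tissue, and the ranges overlapped. Epcam (ENSMUSG00000045394.8, chromosome 17 from 87635979 to 87651129 in mm10), an adhesion protein of nearly all epithelia, had 1300, 825 and 1110 CPM in organoids and 1570, 1650 and 1380 CPM in tissue, a log2 difference of -0.51 (SE 0.18; edgeR adjusted p = 0.0325). Cdh1, or E-cadherin, had 1060, 726 and 1030 CPM against 1030, 858 and 828 CPM, and Krt8, a keratin of simple epithelia, 3020, 2080 and 2780 CPM against 2170, 1740 and 2050 CPM. For these 3 genes organoid replicate 2 was the lowest organoid library. Scaled to library totals, Epcam was called lower (-1.16), as were 13 of the epithelial genes, so the count that was kept depends on the scaling. Fibroblast genes, described below, moved in the opposite direction in the same libraries, and their part in these differences was not tested.

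Among the epithelial genes that moved, Cldn4, a claudin of tight junctions, rose from 427, 433 and 280 CPM in tissue to 2570, 1830 and 2540 CPM in organoids (log2 difference 2.61, SE 0.22, edgeR adjusted p = 4.45e-05). The members that fell were Vil1, Elf3, Ehf, Esrp1, Lgals4, Tjp3 and Muc13. Muc13, a membrane mucin, fell by 1.71 on the log2 scale, and Lgals4, a lectin of the intestinal epithelium, fell by 1.20. Vil1, which bundles actin in microvilli, had 203, 128 and 192 CPM against 441, 355 and 301 CPM. Its difference of -1.07 missed the fold threshold without organoid replicate 2 (-0.86) or tissue replicate 1 (-0.91). Cdx2, a homeobox regulator of intestinal identity, was low in both groups, at 5.17, 2.96 and 4.14 CPM against 13.8, 7.82 and 3.3 CPM, and was not called (log2 difference -1.02, SE 0.49, edgeR adjusted p = 0.096).

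Of 18 stem cell genes tested, 1 rose, 6 fell and 6 were kept, with a median difference of -0.62. The shares that fell and were kept lay near the 26.5% and 34.4% of all genes tested. Those that fell were Lgr5, Ascl2, Tnfrsf19, Cdca7, Tert and Hopx, the one that rose was Cd44, and Ephb2, Ephb3, Rgmb, Msi1, Bmi1 and Lrig1 were kept within 2-fold. Lgr5 (ENSMUSG00000020140.15, chromosome 10 from 115450311 to 115587780 in mm10), the R-spondin receptor that marks crypt base stem cells, had 39.3, 29 and 35.4 CPM in organoids and 117, 329 and 208 CPM in tissue, a log2 difference of -2.66 (SE 0.36; edgeR adjusted p = 0.000373). Ascl2, a transcription factor of the same cells, had 9.07, 7.07 and 9.86 CPM against 28.5, 28.2 and 39.8 CPM. Smoc2, another stem cell marker, had 185, 168 and 231 CPM against 275, 356 and 316 CPM, below the fold threshold at -0.70. Cd44, a hyaluronan receptor that fibroblasts and leukocytes also make, had 779, 888 and 725 CPM against 234, 233 and 125 CPM. The groups did not overlap for these 4 genes, and for 11 of the 18 in the list. Over all genes tested, 35.9% lay without overlap on the higher side and 41.5% on the lower side. With library totals 1 stem cell gene rose and 9 fell, with a median of -1.27, beside 2096 and 7322 of all 17208 genes.

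Feedback targets of Wnt signalling had a median difference of -0.38. Of 17, 2 rose (Dkk3 and Kremen1), 3 fell (Notum, Rnf43 and Lgr6) and 6 were kept within 2-fold, beside 19.8%, 26.5% and 34.4% of all genes tested. With library totals 1 rose and 9 fell, with a median of -1.03. Axin2 (ENSMUSG00000000142.15, chromosome 11 from 108920349 to 108950783 in mm10), a scaffold of the beta-catenin destruction complex, had 204, 174 and 237 CPM in organoids and 398, 399 and 410 CPM in tissue, a log2 difference of -0.97 (SE 0.13; edgeR adjusted p = 0.000323). That difference lies just under the fold threshold and was called with library totals (-1.62), with a filter at a mean of 5 CPM (-1.08) and without organoid replicate 3 (-1.04). Nkd1, an intracellular Wnt inhibitor, had 383, 356 and 498 CPM against 528, 709 and 560 CPM and was kept within 2-fold. Notum, an enzyme that inactivates Wnt proteins, fell from 231, 216 and 225 CPM in tissue to 53.8, 45.6 and 59.6 CPM in organoids (log2 difference -2.08, SE 0.12, edgeR adjusted p = 6.37e-06). An antisense gene shares 38.1% of the exon bases of Notum, and without strand the reads of the pair cannot be told apart.

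Proliferation genes were lower in the cultures. Of 25 tested, 1 rose and 18 fell, beside 19.8% and 26.5% of all genes tested, with a median difference of -1.35. Mki67 (ENSMUSG00000031004.8, chromosome 7 from 135689784 to 135716361 in mm10), the Ki-67 antigen of cycling cells, had 52.6, 45.4 and 52.3 CPM in organoids and 222, 197 and 192 CPM in tissue, a log2 difference of -2.02 (SE 0.10; edgeR adjusted p = 4.85e-06). Top2a, the topoisomerase of dividing cells, had 44.1, 40.1 and 48 CPM against 307, 189 and 160 CPM, and Ccnb1, a mitotic cyclin, 13.8, 12.2 and 14.9 CPM against 43.3, 33.5 and 31.9 CPM. E2f1, a transcription factor of the entry into S phase, went the other way, with 30, 34.4 and 27.6 CPM against 10.1, 8.59 and 10.2 CPM. Scaled to the epithelial list, 16 fell. The groups did not overlap for 24 of the 25 genes, beside 35.9% of all genes tested without overlap on the higher side and 41.5% on the lower side. In bulk RNA, fewer cells of a type and less RNA per cell cannot be told apart, here and for every cell type below.

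Genes of mucus-secreting goblet cells were much lower. Of 21 tested, 0 rose and 18 fell, beside 19.8% and 26.5% of all genes tested. Their median difference was -3.48, and their summed level in organoids was 10.3% of that in tissue. With counts scaled to the epithelial list in place of TMM, 18 fell. Muc2 (ENSMUSG00000025515.15, chromosome 7 from 141690340 to 141754693 in mm10), the gel-forming mucin of the colon, had 16.9, 31.8 and 21.7 CPM in organoids and 955, 883 and 1200 CPM in tissue, a log2 difference of -5.42 (SE 0.28; edgeR adjusted p = 4.7e-06). Clca1, a secreted protein of goblet cell mucus, had 1.28, 0.898 and 0.602 CPM against 505, 58.4 and 138 CPM. Zg16, a lectin of the mucus layer, had 2.84, 7.07 and 4.51 CPM against 74.6, 5.96 and 170 CPM, and its groups overlapped. Atoh1, the transcription factor that sets the secretory fate, had 0.425, 1.11 and 1.2 CPM against 11.3, 13.3 and 18.3 CPM, and Spdef, which drives goblet cell maturation, 4.04, 3.54 and 3.61 CPM against 19.5, 21.8 and 19 CPM. Sytl2, Creb3l1 and Galnt3 were the tested members that were not called.

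Of the colonocyte genes 3 of 26 tested rose and 11 fell, with a median difference of -1.29, beside 19.8% and 26.5% of all genes tested. Slc9a3, the sodium-proton exchanger of the brush border, fell from 455, 527 and 165 CPM in tissue to 15.3, 9.19 and 14.4 CPM in organoids. Those that rose were Car1, Slc16a1 and Alpi. Car1, a carbonic anhydrase, had 210, 125 and 194 CPM against 99.3, 52.8 and 82.2 CPM, and its difference of 1.18 was not called without tissue replicate 2 (0.95), in a fit of all 18 libraries (1.14) or with library totals (0.53). Alpi, the intestinal alkaline phosphatase, had 8.22, 3.48 and 7.83 CPM against 0.208, 0.162 and 0.22 CPM. Slc26a3, a chloride exchanger, had 2.69, 3.27 and 3.91 CPM against 3.32, 0.527 and 30.6 CPM, and Aqp8, a water channel, 1.49, 1.53 and 2.03 CPM against 0.675, 0.527 and 2.42 CPM. Both were low, overlapped between the groups and were not called.

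Rare epithelial lineages could be tested only in part. Of 23 enteroendocrine genes only 11 could be tested, 3 rose (Cck, Cpe and Pcsk1) and 1 fell (Nts), beside 19.8% and 26.5% of all genes tested, with a median of 0.37. With library totals 3 rose and 4 fell, with a median of -0.29, so the direction depends on the scaling. Chga, a granule protein of these cells, had 11.6, 7.6 and 11.1 CPM against 6.49, 14.8 and 21.7 CPM (log2 difference -0.51, SE 0.41, edgeR adjusted p = 0.283), and the lineage regulator Neurod1 was at 0.352 CPM or less in tissue and too low to test. Cck had 68.8, 73.8 and 53.6 CPM against 0.104, 0.0405 and 0.66 CPM. Of 11 tuft cell genes tested, 2 rose (Dclk1 and Ptgs1) and 4 fell (Avil, Alox5, Bmx and Il17rb), while 46.4% of all genes tested were called either way. With library totals 2 rose and 7 fell, with a median of -1.37. Dclk1, a kinase used as a tuft cell marker, rose from 5.09, 9.6 and 4.84 CPM in tissue to 33.2, 52.1 and 47 CPM in organoids (log2 difference 2.75, SE 0.30, edgeR adjusted p = 0.000145). Trpm5, the taste channel of tuft cells, was kept within 2-fold at 1.2, 1.11 and 1.66 CPM against 1.51, 1.9 and 1.23 CPM, and Avil, an actin-binding protein, had 13.5, 12.7 and 12 CPM against 97.9, 181 and 117 CPM.

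**Figure D3:**
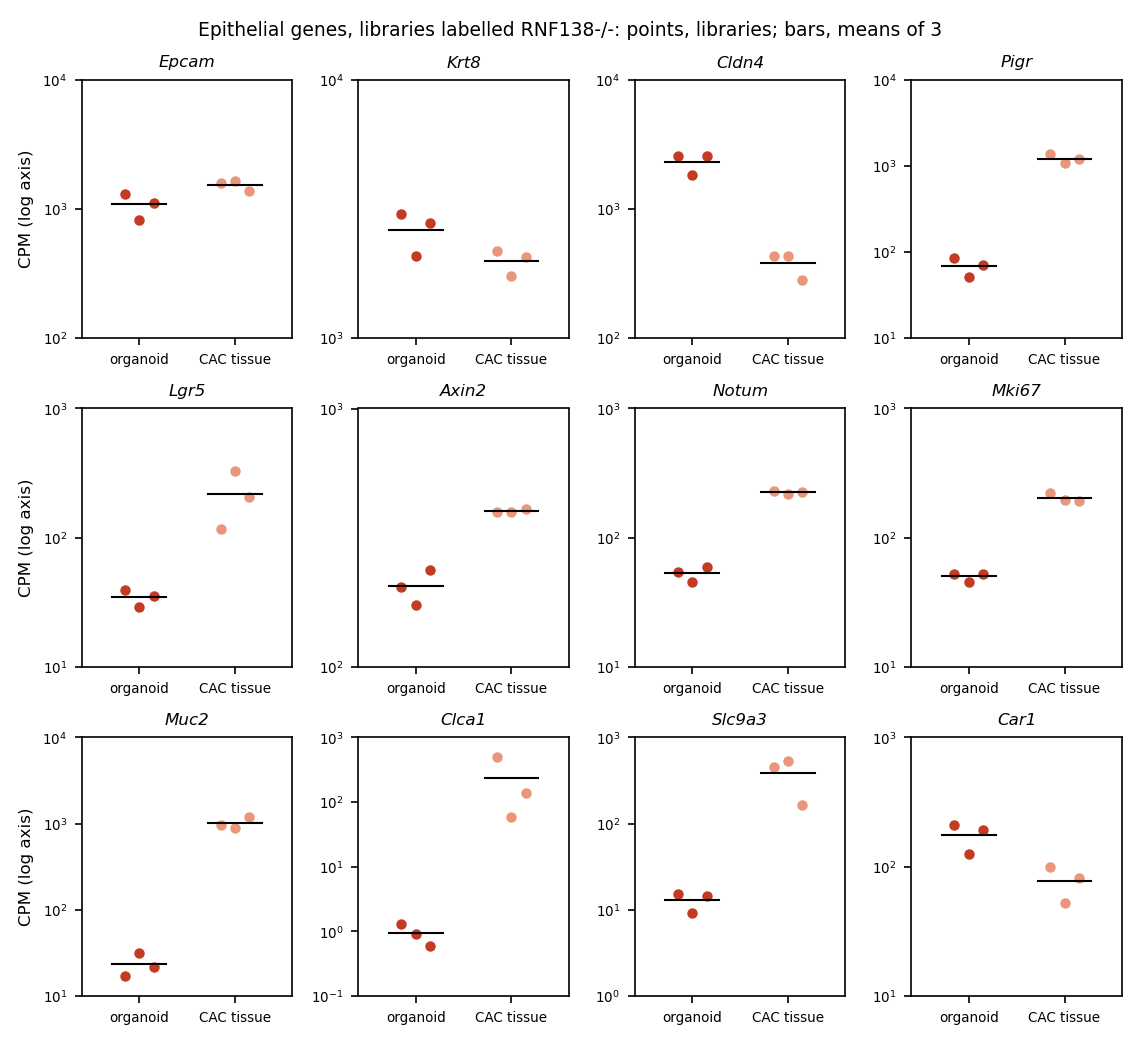
Epithelial genes in libraries labelled RNF138-/-, organoids and CAC tissue side by side in each panel, as CPM on a log axis. Points are libraries and bars are means of 3. Epcam and Krt8 lie close together in both groups, Cldn4 is higher in organoids, and Lgr5, Notum, Mki67 and Muc2 are lower.

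Genes of fetal-like epithelium and of the transcriptional regulator YAP rose. Of 21 tested, 14 rose and 1 fell, beside 19.8% and 26.5% of all genes tested, with a median difference of 1.69. With library totals 11 rose and 3 fell. Ereg, a ligand of the epidermal growth factor receptor, had 1190, 1600 and 1120 CPM in organoids and 41.4, 10.1 and 9.32 CPM in tissue. Ctgf and Cyr61, matricellular targets of YAP, rose by 4.59 and 4.67 on the log2 scale, and Msln, or mesothelin, had 359, 222 and 339 CPM against 9.66, 27.5 and 25.2 CPM. Anxa1, a phospholipid-binding protein, rose by 1.69. Ly6a, known as Sca-1, had 284, 187 and 236 CPM against 637, 225 and 239 CPM, and Clu, or clusterin, 864, 482 and 735 CPM against 321, 780 and 266 CPM. Neither was called. Fibroblasts also make many members of this list, and the sources cannot be told apart.

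Fibroblast genes rose together. Of 57 listed, 54 were tested, 48 rose and none fell, against 19.8% higher over all genes tested, and their median difference was 4.05 against -0.13. Their summed level was between 97500 and 120000 CPM in organoids and between 3560 and 5500 CPM in tissue. Col1a1 (ENSMUSG00000001506.10, chromosome 11 from 94936224 to 94953042 in mm10), the alpha 1 chain of type I collagen, had 13400, 16000 and 16000 CPM in organoids and 121, 269 and 266 CPM in tissue, a log2 difference of 6.11 (SE 0.37; edgeR adjusted p = 9.34e-06). Col1a2, the partner chain, had 11400, 13700 and 12000 CPM against 168, 299 and 306 CPM, and Col3a1, of type III collagen, 11900, 15200 and 14500 CPM against 345, 660 and 797 CPM. The organoid libraries lay far above the tissue libraries for each of these collagens. With library totals, 48 of the list rose and 2 fell.

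The other members among the 8 with the highest organoid levels were Fn1, Sparc, Bgn, Mgp and Dcn. Fn1, or fibronectin, had 8030, 11000 and 9780 CPM against 487, 1120 and 640 CPM. Sparc, a matrix glycoprotein, rose by 4.73, Bgn, a small proteoglycan, by 5.09, and Mgp, an inhibitor of matrix calcification, by 3.71. Dcn, or decorin, had 3400, 3730 and 3380 CPM against 173, 200 and 206 CPM, a log2 difference of 4.18 (SE 0.14; edgeR adjusted p = 1.6e-06). The receptors of the lineage rose as well, Pdgfra with 463, 651 and 497 CPM against 92, 115 and 86.2 CPM and Pdgfrb with 339, 444 and 412 CPM against 34.1, 54.9 and 45.4 CPM. The transcription factors Prrx1, Twist1 and Foxf1 rose by 7.78, 5.34 and 4.74. Vim, the intermediate filament of mesenchyme, had 2470, 3210 and 2390 CPM against 273, 434 and 469 CPM, and Lum, or lumican, 231, 244 and 204 CPM against 2.49, 2.59 and 22 CPM.

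Not every fibroblast gene moved. Gli1, a Hedgehog target, had 3.9, 6.18 and 5.34 CPM against 2.86, 5.67 and 4.71 CPM and was kept within 2-fold. Dpt and Pi16, genes of adventitial fibroblasts, had 7.23, 18.1 and 13.9 CPM against 18.5, 14.2 and 26.9 CPM, and 7.58, 12.9 and 11.2 CPM against 1.82, 2.07 and 12 CPM. Efemp1, Ogn and Nt5e were the other tested members without a call. S100a4 was too low to test, and other genes share 51.7% of its exon bases.

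Myofibroblast genes, targets of serum response factor and TGF-beta among them, rose in 12 of 12 cases, beside 19.8% of all genes tested. Their median difference was 3.10. Acta2 (ENSMUSG00000035783.8, chromosome 19 from 34241090 to 34255590 in mm10), the smooth muscle actin of contractile fibroblasts, had 1220, 1110 and 1130 CPM in organoids and 53.6, 105 and 99.7 CPM in tissue, a log2 difference of 3.74 (SE 0.26; edgeR adjusted p = 1.8e-05). Tnc, or tenascin C, had 4320, 5420 and 5330 CPM against 71.8, 76 and 80.8 CPM. Tagln was at only 5.39, 3.8 and 2.71 CPM in organoids, and 67.9% of its exon bases overlap another gene, so its level is uncertain. Among smooth muscle genes, 12 of 18 tested rose and 3 fell, beside 19.8% and 26.5% of all genes tested. Their median difference was 1.51. With library totals 6 rose and 4 fell, with a median of 0.85. Actg2, the enteric smooth muscle actin, had 406, 338 and 323 CPM against 11.2, 18.5 and 38.3 CPM. Myh11, the myosin of mature smooth muscle, was kept within 2-fold at 58.7, 41.2 and 47.2 CPM against 34.5, 38.7 and 50.5 CPM, and Des, or desmin, had 5.24, 6.02 and 6.1 CPM against 5.19, 5.1 and 26.8 CPM and was not called. Myocd, the coactivator of smooth muscle genes, had 0.213, 0.158 and 0.226 CPM against 0.831, 1.38 and 0.572 CPM.

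The stromal signals that reach the crypt rose with the fibroblast genes. Among niche ligands and antagonists, 23 of 32 tested rose and 2 fell, beside 19.8% and 26.5% of all genes tested. Their median difference was 3.30. Grem1 (ENSMUSG00000074934.3, chromosome 2 from 113746164 to 113758646 in mm10), a secreted BMP antagonist, had 3300, 4570 and 3150 CPM in organoids and 64.7, 90.5 and 47.2 CPM in tissue, a log2 difference of 5.77 (SE 0.31; edgeR adjusted p = 5.83e-06). Rspo1 and Rspo3 are R-spondins, which amplify Wnt signals through Lgr5 and its relatives. Rspo1 had 11.1, 18.5 and 12.8 CPM against 0.104, 0 and 0.264 CPM, and Rspo3 15.7, 14.7 and 14.4 CPM against 0.415, 0.527 and 1.45 CPM. The culture medium described by the study lists no R-spondin, Wnt protein or BMP antagonist. Sfrp1, a secreted Wnt inhibitor, had 3510, 4930 and 3250 CPM against 24.3, 30.1 and 27.3 CPM.

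Wnt ligands themselves differed in direction. Wnt11, Wnt9a, Wnt2b and Wnt6 rose by 6.33, 4.27, 2.83 and 1.39 on the log2 scale, while Wnt3, which Paneth cells make in the small intestine, had 0.496, 0.264 and 0.752 CPM against 3.79, 6.97 and 2.2 CPM. Wnt5a, a noncanonical ligand, had 67.1, 89.6 and 85.9 CPM against 43.2, 51.4 and 31.3 CPM, just under the fold threshold (log2 difference 0.95, SE 0.19, edgeR adjusted p = 0.0031). Bmp5, a BMP ligand, fell by 1.79, and 46.7% of its exon bases overlap another gene. Fgf2, Fgf7, Fgf10 and Hgf, growth factors that act on epithelium, rose by 5.37, 5.09, 6.05 and 4.04. The cytokine genes Il6 and Il11 rose by 7.67 and 5.51, with Il6 at 198, 270 and 193 CPM in organoids and 2.44, 0.486 and 0.484 CPM in tissue.

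Matrix genes rose too. Among basement membrane genes, 15 of 21 tested rose and 0 fell, beside 19.8% and 26.5% of all genes tested. Their median difference was 2.00. Col4a1, a chain of type IV collagen, had 5020, 5640 and 5990 CPM against 358, 452 and 319 CPM, whereas Lama5, a laminin chain made largely by epithelium, had 554, 575 and 624 CPM against 335, 491 and 339 CPM and was kept within 2-fold. Of 22 matrix proteases and inhibitors, 15 rose and 4 fell (Mmp7, Mmp8, Mmp12 and Timp4). The stromelysins Mmp3 and Mmp10 rose by 6.49 and 2.46, while Mmp7, the epithelial matrilysin, fell from 669, 1050 and 398 CPM in tissue to 90.6, 78.7 and 102 CPM in organoids.

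Fibroblast genes were also present in the organoids labelled wild type, at a lower level. On the scale of the 12 libraries, their summed level there was between 26200 and 60800 CPM, and between 3950 and 6090 CPM in wild-type tissue. In a fit of the 6 organoid libraries alone, 33 of 54 fibroblast genes were higher in the libraries labelled RNF138-/- and 0 lower, while of all 15294 genes tested 7.94% were higher and 7.04% lower (15% either way). Without organoid replicate 2 labelled RNF138-/-, 20 were higher. In the same fit 10 of 17 myeloid and 9 of 15 smooth muscle genes were higher with none lower, and 11 of 17 Wnt feedback genes were lower with none higher. Their part in the fibroblast result was not tested. On the scale of 12 libraries, Dcn had 3320, 3730 and 3310 CPM in the libraries labelled RNF138-/- and 1140, 639 and 717 CPM in those labelled wild type (log2 difference 2.03, SE 0.24, edgeR adjusted p = 0.00156). Grem1 had 3220, 4580 and 3090 CPM against 759, 486 and 434 CPM (log2 difference 2.67, SE 0.27, edgeR adjusted p = 0.00107). Col1a1 had 13000, 16000 and 15700 CPM against 9310, 3280 and 3400 CPM (log2 difference 1.46, SE 0.41, edgeR adjusted p = 0.0266), a call lost in 5 of 6 fits that left out a library, the exception being wild-type replicate 1. The organoids labelled wild type had 385, 396 and 463 CPM of Xist and no count of the Y-linked Ddx3y, which had 172, 185 and 149 CPM in the others, so genotype and sex cannot be told apart between these cultures.

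The interaction asks whether the step from tissue to culture differed between the labelled genotypes. Of 18617 genes tested in 12 libraries, it was called for 19.6%, positive for 2191 (11.8%) and negative for 1458 (7.83%). With library totals 1447 were positive and 3548 negative, so the balance of directions depends on the scaling. Negative calls numbered 919, 828 and 924 without organoid replicate 1, 2 or 3 labelled RNF138-/- and 891 without wild-type organoid replicate 2. For the fibroblast list it was positive for 30 of 54 genes and negative for 0, with a median of 1.79. Pdgfra, which rose in culture in the libraries labelled RNF138-/-, had 229, 120 and 74.4 CPM in wild-type organoids and 120, 130 and 102 CPM in wild-type tissue (interaction 2.17, SE 0.46, edgeR adjusted p = 0.00787). For Col1a1 the interaction was not called (interaction 0.96, SE 0.70, edgeR adjusted p = 0.331). Acta2 and Actg2 had interactions of 4.27 and 7.25, and wild-type tissue had 615, 717 and 1300 CPM of Acta2. For the Wnt feedback genes the interaction was negative for 12 of 17. Axin2 had 475, 595 and 650 CPM in wild-type organoids and 154, 188 and 23 CPM in wild-type tissue, the opposite order to the libraries labelled RNF138-/- (interaction -3.23, SE 0.74, edgeR adjusted p = 0.0105).

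**Figure D4:**
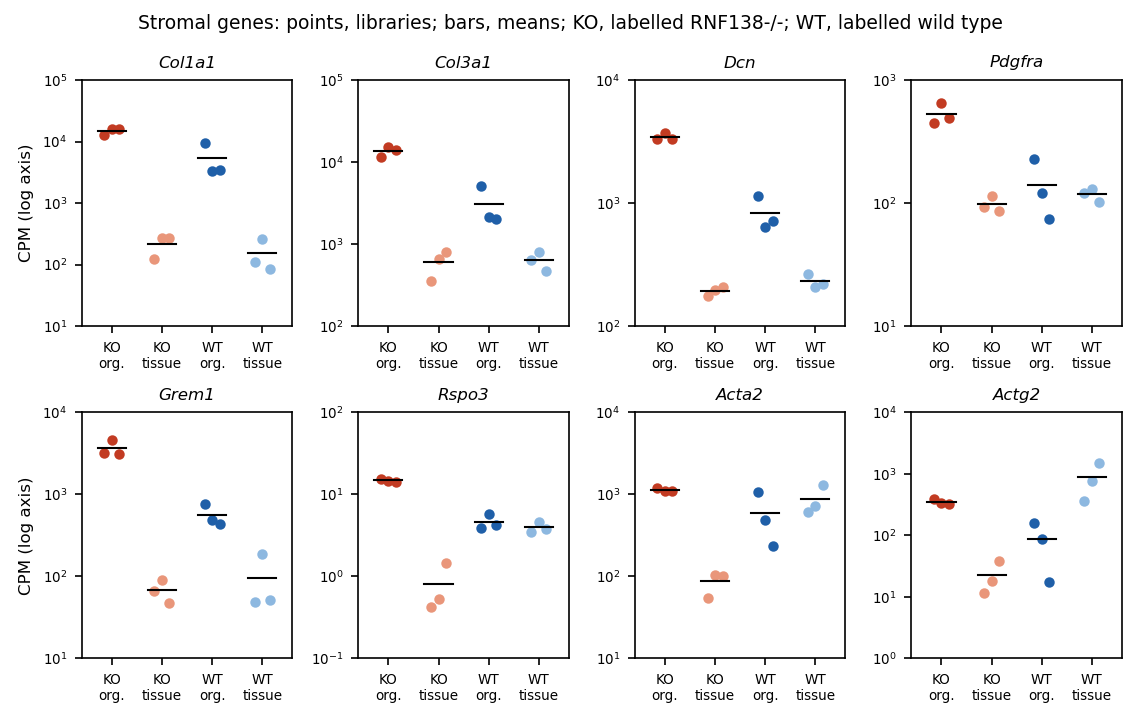
Stromal genes in 4 groups of 3 libraries, as CPM on a log axis on the scale of the 12 libraries, with points for libraries and bars for means (KO, labelled RNF138-/-; WT, labelled wild type). Col1a1, Dcn and Grem1 are higher in both kinds of organoid than in tissue, and higher in KO than in WT organoids. Acta2 is lowest in KO tissue, at 54.4, 105 and 100 CPM.

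Genes of blood vessels and blood-derived cells were lower in culture. Among endothelial genes, 1 of 22 tested rose and 16 fell, beside 19.8% and 26.5% of all genes tested. Their median difference was -2.84. Pecam1 and Cdh5, adhesion proteins of endothelium, had 0.425, 0.475 and 0.376 CPM against 28, 42.5 and 43.6 CPM, and 0.78, 0.581 and 1.73 CPM against 19.6, 31.8 and 24.5 CPM. Of 21 T and natural killer cell genes tested, 17 fell, with a median of -4.57, or -3.71 with genes without an organoid count set at 3 counts. Cd3e, a chain of the T cell receptor complex, had no count in organoids and 1.35, 2.07 and 0.528 CPM in tissue. Trbc1 and Trbc2, constant segments of the receptor, rose, the latter with 10.2, 7.87 and 6.47 CPM against 3.53, 2.31 and 1.1 CPM. Of 13 B and plasma cell genes tested, 10 fell, with a median of -4.88, or -4.25 at the same bound. Xbp1 and Sdc1, which secretory and epithelial cells also express, rose.

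Myeloid genes fell in 21 of 23 cases, beside 26.5% of all genes tested, with a median of -3.43. Ptprc, the leukocyte antigen CD45, had 1.13, 0.422 and 0.903 CPM in organoids and 40.7, 35.2 and 25.1 CPM in tissue, a log2 difference of -5.40 (SE 0.34; edgeR adjusted p = 1.1e-05). Csf1r, the receptor of macrophage colony-stimulating factor, had 9.28, 8.66 and 9.78 CPM against 69, 70.6 and 47.4 CPM. Lyz2, a lysozyme of macrophages, had 111, 72.2 and 112 CPM against 557, 475 and 384 CPM. In organoids labelled wild type it had 6.43, 4.1 and 7.54 CPM on the scale of the 12 libraries. Cd68, a lysosomal protein, had 16.2, 11.7 and 18.1 CPM against 21.1, 22.5 and 27.5 CPM and missed the fold threshold. Of 15 neutrophil genes tested, 12 fell, among them S100a8 with 0.425, 0.475 and 0.677 CPM against 114, 91 and 46.3 CPM. Mast cell and eosinophil genes fell in 9 of 10 cases, and tissue replicate 1 held most of the signal of Mcpt1, a mast cell protease, at 85.9, 5.96 and 2.9 CPM in tissue. Of neuron and glia genes, 2 rose and 2 fell of 11 tested, near the 19.8% and 26.5% of all genes tested. Of 6 adipocyte genes tested, 2 rose and 1 fell, and Adipoq had no count in any of the 6 libraries.

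Antigen presentation and many interferon genes were lower as well. Of 8 MHC class II genes tested, 7 fell, beside 26.5% of all genes tested. Their median was -7.05, or -5.14 at the bound of 3 counts. Ciita, the master regulator of the class, had 0.0709, 0 and 0.0752 CPM against 4.26, 4.94 and 11.6 CPM. H2-Ab1, a class II chain, had 21.1, 30.5 and 26.3 CPM against 102, 91.6 and 113 CPM. Among interferon-stimulated genes, 4 of 30 tested rose and 20 fell, beside 19.8% and 26.5% of all genes tested. Their median difference was -1.71. Those that fell included Gbp3, a guanylate-binding protein, with 1.91, 3.06 and 2.48 CPM against 19.8, 13 and 26.6 CPM, and Irgm1, an immunity-related GTPase, with 11.9, 11.4 and 11.7 CPM against 39.9, 45 and 67.1 CPM. Those that rose were Ifit1, Isg15, Rsad2 and Ifi27. Rsad2, the antiviral viperin, had 26.4, 19.6 and 20.1 CPM against 7.68, 4.7 and 3.34 CPM.

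Targets of NF-kB, the transcription factor family on which the study centres, were higher in culture. Of 32 tested, 20 rose and 4 fell, beside 19.8% and 26.5% of all genes tested, with a median difference of 1.43. With library totals 12 rose and 6 fell, beside 2096 and 7322 of all 17208 genes. Cxcl1, a neutrophil chemokine, had 297, 387 and 333 CPM in organoids and 32.8, 20.3 and 9.72 CPM in tissue, a log2 difference of 4.02 (SE 0.41; edgeR adjusted p = 9.85e-05). Ccl2, a monocyte chemokine, had 675, 1070 and 751 CPM against 4.41, 4.46 and 3.65 CPM. The feedback inhibitors Nfkbia and Tnfaip3 rose by 1.83 and 2.78, and Nfkb2, a subunit of the noncanonical pathway, by 1.59 (0.94 and not called with library totals). Those that fell were Traf1, Il1b, Ltb and Nos2. Il1b, an interleukin of myeloid cells, fell from 62.7, 41.8 and 26.3 CPM in tissue to 2.06, 2.06 and 1.43 CPM in organoids. Cxcl5 had 53.4, 48.3 and 55.2 CPM against 156, 65.4 and 77.3 CPM and missed the fold threshold. Fibroblasts express many of these genes, and whether the reads came from them or from epithelium cannot be told apart.

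The sequences before the start sites of Cxcl1, Cxcl2, Il6 and Egr2, an immediate early gene described next, are shown because these genes rose and each sequence holds a match to a motif of a factor named here. They are the 250 bases before a start site in RefSeq (GRCm38.p6), read 5′ to 3′ on the strand of the gene. Capitals mark the match, GGGA followed by any 2 bases and TTCC on either strand for NF-kB and the CArG box of serum response factor in Egr2. In Cxcl1 and Cxcl2 the capitals span 2 overlapping matches.
Cxcl1 (chr5:90890995-90891244, plus strand): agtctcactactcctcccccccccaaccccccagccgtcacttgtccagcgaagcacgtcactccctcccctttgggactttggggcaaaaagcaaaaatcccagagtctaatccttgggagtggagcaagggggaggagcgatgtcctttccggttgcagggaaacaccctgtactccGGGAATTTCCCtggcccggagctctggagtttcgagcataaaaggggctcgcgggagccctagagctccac
Cxcl2 (chr5:90903649-90903898, plus strand): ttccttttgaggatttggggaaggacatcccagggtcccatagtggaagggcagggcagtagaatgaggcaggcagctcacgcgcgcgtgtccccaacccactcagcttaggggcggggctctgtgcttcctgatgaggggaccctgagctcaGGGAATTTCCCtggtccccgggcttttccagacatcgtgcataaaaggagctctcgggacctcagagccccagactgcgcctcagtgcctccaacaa
Il6 (chr5:30012864-30013113, plus strand): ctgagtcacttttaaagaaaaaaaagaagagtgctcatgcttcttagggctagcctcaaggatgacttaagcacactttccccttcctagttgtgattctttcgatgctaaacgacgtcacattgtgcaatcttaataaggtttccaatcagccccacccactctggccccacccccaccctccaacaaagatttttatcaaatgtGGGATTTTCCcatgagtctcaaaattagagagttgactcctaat
Egr2 (chr10:67537316-67537565, plus strand): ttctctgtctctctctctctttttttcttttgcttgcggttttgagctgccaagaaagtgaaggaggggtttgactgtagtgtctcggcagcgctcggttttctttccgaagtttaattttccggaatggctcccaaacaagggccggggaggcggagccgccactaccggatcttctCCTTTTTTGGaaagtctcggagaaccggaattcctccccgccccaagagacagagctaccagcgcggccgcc
The NF-kB motif was in such a window for 7 of the 26 NF-kB targets that have an entry, and for 1.36% of 27025 genes. Ltb, among the matches, fell. Il6 is counted in the niche list and not among these targets. The list was drawn up from known targets, so this share describes the list and not the cultures. The CArG box was found for 2 of 16 immediate early genes with an entry and for 1.62% of all genes. It was found for 1 of 8 myofibroblast genes and 0 of 16 smooth muscle genes with an entry. A match is a run of letters and says nothing of binding in these samples.

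Genes of the epithelial response to bacteria and injury fell. Of 15 tested, 2 rose and 10 fell, beside 19.8% and 26.5% of all genes tested, with a median difference of -1.58. Pigr, which carries immunoglobulin A across the epithelium, had 84.4, 50.5 and 69.5 CPM in organoids and 1360, 1060 and 1210 CPM in tissue, a log2 difference of -4.15 (SE 0.22; edgeR adjusted p = 5.44e-06). Reg3g, an antibacterial lectin, had 26.4, 21.1 and 33.7 CPM against 289, 1010 and 229 CPM, and Nos2, the inducible nitric oxide synthase, 5.67, 9.4 and 6.92 CPM against 144, 93.4 and 51.1 CPM. Lcn2 and Tnfrsf12a rose. Lcn2, an iron-scavenging lipocalin, had 493, 462 and 599 CPM against 162, 301 and 81.4 CPM and was not called with library totals (0.86).

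Immediate early genes rose in 20 of 20 cases, beside 19.8% of all genes tested, with a median of 2.82, and in 16 with library totals. Egr1, a transcription factor induced by growth factors, had 253, 203 and 218 CPM in organoids and 33.6, 29.2 and 33 CPM in tissue, a log2 difference of 2.82 (SE 0.12; edgeR adjusted p = 2.68e-06). Fosb had 772, 727 and 581 CPM against 4.93, 1.99 and 4.57 CPM, and Fos 212, 168 and 183 CPM against 76.8, 37.8 and 74.4 CPM. Egr2 had 34.9, 39.7 and 30.5 CPM against 1.35, 2.31 and 2.77 CPM. Among glycolysis and hypoxia genes, 17 of 20 tested rose and 0 fell, with a median difference of 1.61, and 10 rose with library totals. Vegfa, the vascular growth factor, had 1220, 1550 and 1210 CPM against 96.5, 96.3 and 81.5 CPM. Car9, a carbonic anhydrase induced by low oxygen, had 104, 76.7 and 101 CPM against 45.5, 25.4 and 15.7 CPM, and Ldha, lactate dehydrogenase, 1370, 1400 and 1320 CPM against 744, 533 and 437 CPM.

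Of 23 cholesterol synthesis genes, 15 were kept within 2-fold, 4 rose (Insig1, Cyp51 and Hsd17b7 among them) and 1 fell (Fdps), with a median of 0.34. Hmgcs1, an early enzyme of the pathway, had 205, 172 and 179 CPM against 167, 159 and 157 CPM. Of 24 ribosomal protein genes 16 were kept and 5 rose, with a median of 0.53, while 34.4% of all genes tested were kept. With library totals these medians were -0.31 and -0.13, so the direction of both groups depends on the scaling. Of the cholesterol synthesis genes 1 then rose and 1 fell, and of the ribosomal protein genes 1 rose and 2 fell. Among xenobiotic enzyme genes, 11 of 29 tested rose and 7 fell, with a median difference of 0.30, and with library totals 3 rose and 11 fell, with a median of -0.35. Over all genes tested 19.8% rose and 26.5% fell, or 2096 and 7322 genes with library totals. Gstm1, a glutathione transferase, was kept within 2-fold at 105, 96.2 and 99.6 CPM against 82.9, 99.8 and 61.7 CPM. Among squamous epithelial genes, 5 of 12 tested rose and 0 fell, with a median difference of 0.82, and with library totals 3 rose and 3 fell, with a median of 0.16. Krt5, a basal keratin too low to test, was at 0.142, 15 and 0 CPM in organoids and 0.081 CPM or less in tissue, so organoid replicate 2 stood apart.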

How the data were processed

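RNA sequencing counts were analysed for 3 organoid and 3 CAC tissue libraries labelled RNF138-/-, with 6 libraries labelled wild type for the interaction and for the comparison of organoids. The authors deposited unnormalized read counts, whole numbers for 36757 genes in 18 libraries. The submitters' processing notes name STAR 2.6.1d, HTSeq 0.11.2, DESeq2 and mm10, and the study names Cufflinks and Gencode v.M8. The strand setting is not given in the sources used here. A second deposited table with the authors' own log2 fold changes and p-values was not used. Identifiers were matched to GENCODE M21 (36700 genes), and 26 symbols that had become dates were restored.

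Counts were fitted with edgeR 4.0.16 in R 4.3.3 (filterByExpr by group, TMM, quasi-likelihood test, Benjamini-Hochberg adjustment over all genes tested). The scripts were tested on simulated data. Alternatives were DESeq2 1.42.0, RLE size factors, library totals, scaling to the epithelial list, other filters, no fold threshold, thinning, all 18 libraries, a replicate block and leaving out each library. Replicates differed by a chi-square per degree of freedom between 7.44 and 36.5, and none was a copy of another.

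The comparison and the 35 gene lists were chosen with earlier results of these data known. The rule for naming took the 10 largest differences in each direction among called, non-overlapping genes of at least 50 CPM (without predicted genes, sex-linked genes and antigen receptor segments whose symbol has v, d, j or c after Igh, Igk, Igl, Tra, Trb, Trg or Trd, which leaves in Igha and Ighg1), lead genes of each list, the 8 fibroblast genes highest in organoids, the 5 largest interactions in each direction, and members that went against their list. Further genes were chosen with their values in view. Some genes that the rule names are not reported here. Total counts set the counting precision.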

Additional observations from a re-analysis of the deposited data

Results flagged for a closer look

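The difference between organoids and CAC tissue differed between libraries labelled RNF138-/- and wild type for 2191 genes with a positive and 1458 with a negative interaction, tested in edgeR with an interaction term. Values here are that interaction on the log2 scale, libraries labelled RNF138-/- minus wild type, for named genes past an adjusted p of 0.05 and a fold of 2. The wild-type organoids differed from the other libraries in the expression of Xist and Ddx3y, so genotype and sex of the cultures cannot be told apart, and no cause was tested.

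Among protein-coding genes with 50 CPM or more in the highest group, sex-linked genes and antigen receptor segments of the naming rule left out, the largest positive interactions were Car4 8.59, Chrdl2 8.25, C1qc 8.12, Aqp8 7.93 and Tmigd1 7.79. Car4, a membrane carbonic anhydrase of colonocytes, had 425, 403 and 1290 CPM in wild-type tissue and 4.54, 1 and 17.9 CPM in tissue labelled RNF138-/-. Chrdl2, a BMP antagonist, had 104, 118 and 133 CPM in organoids labelled RNF138-/- and 3.87, 4.5 and 1.75 CPM in wild-type organoids. C1qc, a complement gene of macrophages, had no count in wild-type organoids, so its fitted value depends on the prior count and its rank cannot be read. For Tmigd1 wild-type tissue had 7.07, 17.3 and 382 CPM, and its interaction was 4.40 without wild-type tissue replicate 3. Under the same limits the largest negative interactions were Lyz1 -5.88, Defa30 -5.57, Defa24 -5.53, Defa21 -4.83 and Col9a2 -4.52. Of these, 4 are genes of Paneth cells, and alpha-defensin genes resemble each other closely enough to share reads. Other listed Paneth cell genes differed. Mmp7, Pla2g2a and Itln1 were negative at -4.28, -4.33 and -4.42, while Ang4 at -0.12 and Reg4 at -2.39 were not called (edgeR adjusted p = 0.973 and 0.184). Ang4 had 65.3, 1070 and 1930 CPM in wild-type tissue and 325, 163 and 94.1 CPM in tissue labelled RNF138-/-.

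Named epithelial genes with a positive interaction were Vil1 1.42, Cdx2 2.70, Clca1 3.50, Car1 5.03, Slc26a3 5.91, Dclk1 2.63 and Trpm5 3.08. Wild-type tissue replicate 3 was far above the other two for Car1, at 591, 355 and 8500 CPM, and highest for Vil1, at 646, 496 and 1160 CPM, Cdx2, at 42.8, 92.1 and 245 CPM, and Trpm5, at 3.23, 8.71 and 25.9 CPM. Of all 18617 genes tested, the interaction was positive for 11.8% and negative for 7.83%. It was negative for 7 of 18 stem cell genes and 12 of 17 Wnt feedback genes, among them Lgr5 -3.15, Ascl2 -2.44, Smoc2 -3.21, Axin2 -3.23, Nkd1 -3.50 and Notum -3.71. It was positive for 30 of 54 fibroblast genes and 11 of 32 niche genes, with 2 niche genes negative, and the positive ones included Col3a1 2.23, Dcn 2.31, Pdgfra 2.17, Pdgfrb 1.91, Rspo1 7.00, Rspo3 3.97 and Grem1 3.20. It was also positive for 18 of 19 smooth muscle genes, among them Myh11 6.92, Des 7.65 and Actg2 7.25. Wild-type tissue had 839, 832 and 2340 CPM of Myh11 against 35.1, 38.4 and 50.6 CPM in tissue labelled RNF138-/-. Of the remaining genes, Ptprc 3.19, Rsad2 3.17, Hmgcs1 1.03 and Sqle 1.30 were positive, and S100a8 -3.16, Lcn2 -2.91 and Reg3g -4.31 were negative.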

How the results depend on the processing

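Scaled to library totals, 2096 genes were higher and 7322 lower in organoids, and 1447 had a positive and 3548 a negative interaction. Without a fold threshold 5781 genes were higher, and with a mean of at least 5 CPM 2242 were lower. Leaving out 1 library gave between 3401 and 3563 genes higher and between 4499 and 4853 lower. For the interaction it gave between 1711 and 2391 positive and between 828 and 1608 negative genes, with 919, 828 and 924 negative without organoid replicate 1, 2 or 3 labelled RNF138-/- and 891 without organoid replicate 2 labelled wild type. Of the fibroblast genes, between 20 and 42 were higher in organoids labelled RNF138-/- than in wild-type ones, and 0 were lower. Deviations of same-numbered organoid and tissue libraries correlated between -0.00502 and 0.0637, and 4 of 6 libraries correlated best with their own number. These values do not decide whether same-numbered libraries belong together. The numbers were not taken as pairs because the labels give no pairing. With the replicate block 3448 genes were higher and 4473 lower, the interaction counts were 2101 and 1287, and the fibroblast counts 33 and 0. DESeq2 called 3900 higher and 5238 lower. Of the single-gene values under all alternatives, 9933 kept their side of the threshold, 229 were no longer called and 201 became called. Among values called in either fit, 0 changed direction. Values called in neither fit count among the 9933 even where their sign changed. The cause of these changes was not tested. Levels under about 1 CPM rest on few counts.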

Other observations

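Genes of Paneth cells, the antimicrobial cells of the small intestinal crypt, were chosen after their values were seen. Lyz1, their lysozyme, had 23, 18.1 and 20.2 CPM in organoids and 2030, 3160 and 1730 CPM in tissue in libraries labelled RNF138-/-. Defa24, an alpha-defensin, had 16.7, 15.1 and 9.71 CPM against 1090, 925 and 539 CPM. Reg4, a lectin of secretory cells, had 17.1, 18.3 and 24 CPM against 339, 354 and 395 CPM, and Pla2g2a, a secreted phospholipase, 59.9, 47.2 and 62.1 CPM against 286, 412 and 418 CPM. Summed over 17 alpha-defensin genes, Defa-ps1 and Defa-ps6 (named as pseudogenes) included, on the scale of 12 libraries, the level was 75.2, 59.3 and 39.5 CPM in organoids labelled RNF138-/- and 2150, 1600 and 1490 CPM in their tissue. It was 62.8, 302 and 400 CPM in wild-type organoids and 461, 189 and 62.9 CPM in wild-type tissue. The labels call the tissue colorectal, where such cells are normally scarce, and give no position along the bowel.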
